A study of Mus musculus with 9 samples.

Results

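The AP-2 transcription factors are a family of 5 mouse genes, Tfap2a to Tfap2e, and all of them were represented on the expression arrays of this study. The members were these 5 genes of the 14440 with a probe set of a single symbol, followed in the 8 probe sets, of 25581, whose only symbol in the array annotation was one of theirs. Tfap2c had 3 probe sets, Tfap2b had 2, and Tfap2a, Tfap2d and Tfap2e had 1 each. The family was chosen by its measured levels in tumour against muscle on these same arrays, so those levels are a description, with no test.

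RNA of 5 tumours and of 4 skeletal muscles was hybridised, each to an array of its own. MYF-5 CRE/SSM2 is the label of the tumour mice, and the sample descriptions name SYT-SSX, the fusion oncoprotein that drives synovial sarcoma in people. The label CC23 belongs to tumour 1, CC17-B to tumour 2, CC17-A to tumour 3, SSM5 to tumour 4 and SSM4 to tumour 5, while muscles 1 to 4, titled wild type, came from hind limb, intercostal muscle, forelimb and a second hind limb sample. Myf5 is a gene of muscle precursor cells, and its control regions drive the Cre recombinase in these mice, so the model starts from cells that have expressed it. Strain, age and sex were not given in the sources used here, and genotype differs together with tissue in every comparison. Whether every array stands for a separate animal is not in the labels, and tumours 2 and 3 share the label CC17, so the spread between arrays may be partly technical. The p-values given below treat every array as independent, CC17-A and CC17-B included. In bulk tissue, fewer cells of a type and less RNA per cell cannot be told apart.

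AP-2 proteins bind DNA as dimers through a basic region and a helix-span-helix domain, and prefer GC-rich palindromes. They act early in development, in the neural crest, the surface ectoderm, the limb, the kidney and the germ line. Tfap2c, which encodes AP-2 gamma, is known from trophoblast, germ cell precursors and breast epithelium, and Tfap2b, which encodes AP-2 beta, from kidney, sympathetic neurons and the ductus arteriosus. Skeletal muscle is not a tissue in which the family is known for a role.

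Levels are scaled intensity, the deposited signal after the arrays were brought to a common 2% trimmed mean. Each array's floor was set at its 40th percentile, which lay between 96.4 and 137, and values under it carry little signal over background. A log2 difference is the mean of log2(scaled intensity + 16) in tumours minus that in muscle. On this scale the difference understates the change of dim genes. Where every muscle array lay below the floor, the fold is a lower bound, the tumour mean against the muscle floors, written as "at least". The log2 difference of such a gene depends on the pseudocount and is no measured fold.

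Tfap2c was high in every tumour and at or near background in muscle. By its brightest probe set (1436392_s_at) it read 7754, 5000.1, 3399.9, 2421 and 2344 in tumours 1 to 5. The muscles stood at 82.9, 90.9, 11.9 and 13.8, all below the floor. The groups did not overlap. The tumours averaged 4184 ± 2265 (SD, n = 5), a level at least 31.8-fold above muscle, and the log2 difference was 6.11.

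The other Tfap2c probe sets gave the same picture at other intensities. Probe set 1418147_at read 1873, 1406, 879.5, 754 and 809.7 in tumours 1 to 5, against 11.5, 4.51, 56.5 and 14.0 in the muscles. All of these muscle values were below the floor, so the tumours were at least 9.18-fold higher, with a log2 difference of 5.03. Probe set 1448977_at read 2678, 1434, 534, 547 and 775 in the tumours and 92.6, 129, 21.5 and 117 in the muscles, where muscles 2 and 4 reached the floor. Its log2 difference was 3.40, the smallest of the 3, and its groups did not overlap either.

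Tfap2b was the other family member raised above the floor in tumours, and it varied more from tumour to tumour. By probe set 1435670_at it read 175, 337, 1389, 840.3 and 352 in tumours 1 to 5. The muscles read 10.1, 132, 29.6 and 119, with muscles 2 and 4 at or above the floor. Every tumour lay above every muscle, but tumour 1 exceeded muscle 2 only 1.33-fold. The tumour mean was 619 ± 498 (SD, n = 5), the muscle mean 72.6 ± 61.7 (SD, n = 4), and the log2 difference 2.83. The second probe set, 1423340_at, was dimmer, at 72.9, 122, 396, 244 and 68.0 in the tumours and 7.04 to 36.7 in the muscles. With tumours 1 and 5 below the floor and every muscle below it, its bound was at least 1.36-fold, and its log2 difference was 2.22.

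Tfap2a, Tfap2d and Tfap2e stayed close to background. Tfap2a (1421995_at), which encodes AP-2 alpha, the family's main neural crest and epidermal member, read 175, 89.5, 246, 108 and 18.8 in the tumours and 93.9, 209, 112 and 154 in the muscles. The groups overlapped, 3 arrays of each reached the floor, and the log2 difference was −0.37. Tfap2d (1425443_at), AP-2 delta, known from the midbrain and retina, read 87.4 to 203 in tumours and 24.5 to 84.7 in muscles, with tumours 3 and 5 at or above the floor. Its groups were parted by 1.03-fold, and under 3 of the 5 scalings of the arrays they overlapped. Tfap2e (1435205_at), AP-2 epsilon, known from the olfactory bulb, was below the floor on all 9 arrays, at 2.34 to 3.49 in 4 tumours, 34.1 in tumour 4 and 3.21 to 6.59 in muscles.

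In all, 6 of the 8 probe sets had every tumour above every muscle, where 15.7% of all single-symbol probe sets did so. Because this contrast was known when the family was taken up, nothing is read from that count. At least 4 arrays had to reach the floor for a probe set to be tested with the others. The 3 Tfap2c probe sets, Tfap2b 1435670_at and Tfap2a passed, while Tfap2b 1423340_at, Tfap2d and Tfap2e did not.

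**Figure D1:**
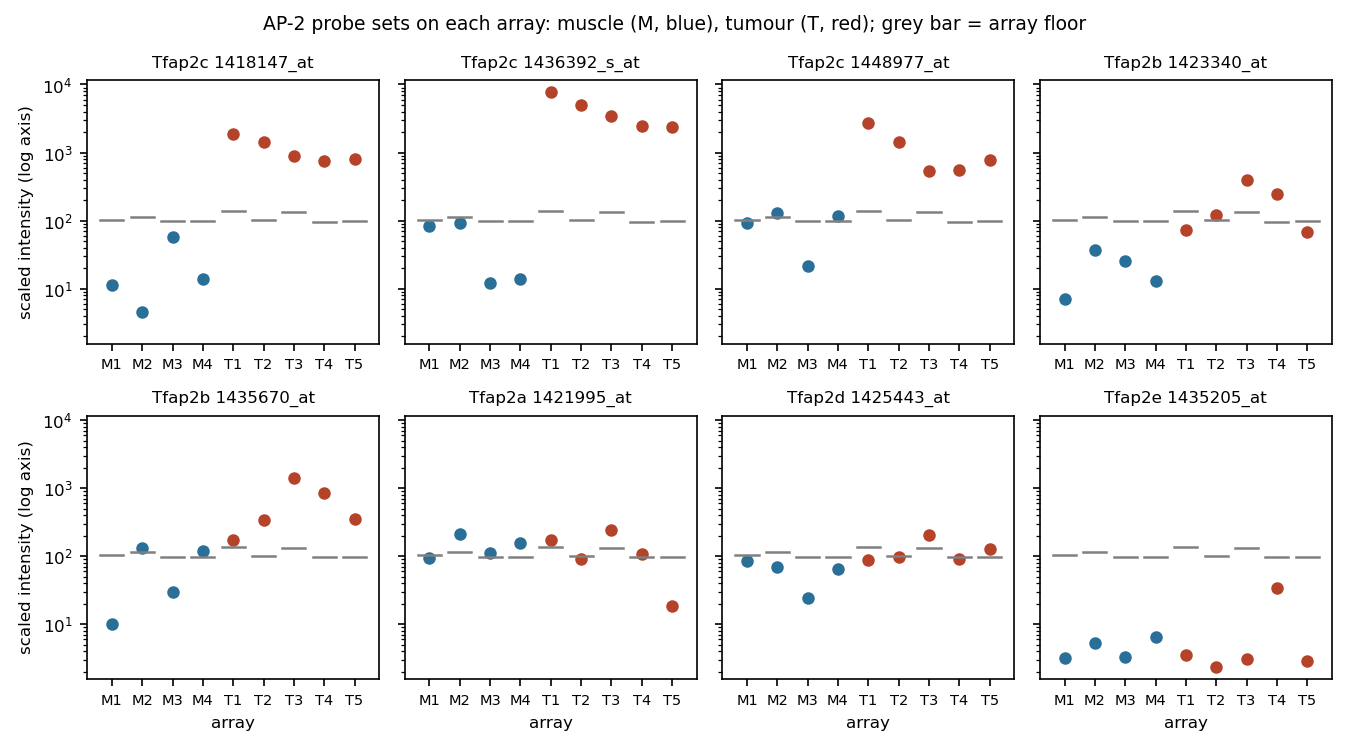
Scaled intensity (log axis) of the 8 AP-2 probe sets on the 4 muscle arrays (M, blue) and 5 tumour arrays (T, red), 1 point per array, with the floor of each array as a grey bar. Tfap2c lay far above the floor in every tumour and Tfap2b (1435670_at) above it in every tumour, while Tfap2a, Tfap2d and Tfap2e lay around or below it.

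The tumours did not rank alike for the raised members. Tumour 1 had the highest Tfap2c by all 3 probe sets, at 164%, 185% and 224% of the tumour mean, and tumour 2 came next, at 123%, 119.5% and 120.1%. For Tfap2b, tumour 1 stood at 28.3% and 40.4% of the tumour mean by the 2 probe sets, while tumour 3 was highest, at 225% and 219%, and tumour 4 second, at 136% and 135%. The tumour with most Tfap2c was thus the lowest or next to lowest for Tfap2b. With 5 tumours the relation of the genes to each other was not tested. Among all probe sets past the floor rule, 91.8% had a smaller SD of log2 levels over the tumours than Tfap2b 1435670_at, against 59.1% to 87.5% for the Tfap2c probe sets.

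The CC17 pair shared a label but not an AP-2 level. Tumour 3 (CC17-A) had 4.12-fold and 3.25-fold more Tfap2b signal than tumour 2 (CC17-B) by the 2 probe sets. The difference of 1435670_at between these arrays was larger than that of 97.1% of probe sets. Tfap2c went the other way, 1.47-fold to 2.68-fold higher in tumour 2, and 59.0% to 91.8% of probe sets differed less.

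**Figure D2:**
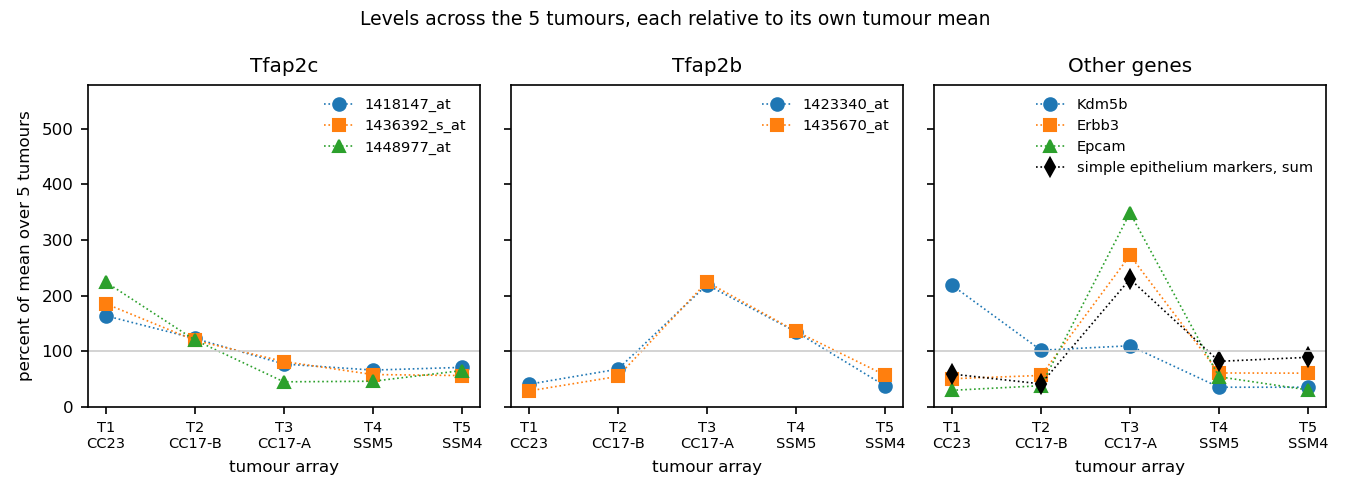
Level in each of the 5 tumours as a percent of the mean over the tumours, for the 3 Tfap2c probe sets, the 2 Tfap2b probe sets, and Kdm5b, Erbb3, Epcam and the summed simple epithelium markers; dotted lines only join the points of 1 item. Tfap2c and Kdm5b were highest in tumour 1, and Tfap2b, Erbb3, Epcam and the epithelial sum in tumour 3.

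Other measures moved with these tumours. The ratio of the 3-prime to the 5-prime control probe set of Actb, a sign of RNA integrity, was 12.7 in tumour 1, 1.99 to 4.54 in the other tumours and 1.62 to 1.93 in muscle, and its part in the level of Tfap2c in tumour 1 was not tested. Without tumour 1 the log2 differences of Tfap2c were 5.85, 4.83 and 3.04. Of 11 simple epithelium markers 8 were in the table, and their summed intensity was 13766 in tumour 3, 2459 to 5323 in the other tumours and 2642 to 3029 in muscle, with 0 of them below the floor in all tumours. Esr1 made up 60.6% to 83.9% of the muscle sums, and the other 7 markers summed to 13421 in tumour 3, 2178 to 4493 in the other tumours and 445 to 1193 in muscle. Of the 7 tested, Krt8, Krt18, Epcam and Foxa1 were called higher, Esr1 lower, and Cldn3 and Cldn7 were not called, so 71.4% were called beside 48.1% of all genes tested with limma. Their part in the level of Tfap2b in tumour 3 was not tested. Without tumour 3 the log2 difference of Tfap2b 1435670_at was 2.45. The 7 skeletal muscle markers summed to 240.1 to 66898 in tumours and 280260 to 409333 in muscle, and all 7 were called lower in tumours.

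Limma was run over the 10646 genes that reached the floor on at least 4 arrays, each by its brightest probe set. Tfap2a, Tfap2b and Tfap2c were among these genes, but tests are given only for genes outside the family. A gene was called at a Benjamini-Hochberg adjusted p under 0.05. Epcam, Foxa1, Gbx2, Eomes, Hand2 and Bmp7 were below the floor on every muscle array and so entered the test through their tumour arrays alone. Their p-values, and the list counts that hold these genes, carry that limit. The tissues differ widely: 48.1% of genes were called, 30.1% higher and 18.0% lower in tumours, and the median log2 difference of all genes was 0.23. This balance moved with the scaling. Higher calls made up 62.6% of calls under the scaling used here. Centring each array on its median gave 51.9%, with a median of all genes of 0.04. Centring on housekeeping sets, the ribosomal proteins and the proteasome, gave 75.6%, with a median of 0.51. Relative to that median, over 5 scalings, the difference ran from 5.82 to 6.07 for Tfap2c 1436392_s_at and from 2.55 to 2.62 for Tfap2b 1435670_at.

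The genes of partners and regulators of AP-2 factors moved in both directions at the RNA level. Of 17 listed partners and regulators, 14 were in the table and 12 were tested; 5 were higher, 2 lower and 5 not called, a share of 58.3% against 48.1% of all genes. The list median was 0.29, close to that of all genes. The same list holds activators and inhibitors, so it has no direction of its own.

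Kdm5b, a histone H3 lysine 4 demethylase reported to act with AP-2 gamma, rose most, with a log2 difference of 2.18 (SE 0.48, limma adjusted p = 0.00341). It read 4443, 2066, 2229, 712 and 712 in tumours 1 to 5 and 309 to 367 in the muscles. All 5 tumours lay above all 4 muscles, and tumour 1 was highest, as for Tfap2c. The acetyltransferases Ep300 and Crebbp, coactivators that CITED proteins bring to AP-2, rose by 1.02 and 0.99 (limma adjusted p = 0.000816 and 0.000765). Ep300 stood at 2211 ± 264 (SD, n = 5) against 1088 ± 159 (SD, n = 4). Dek, a chromatin protein reported to aid AP-2 alpha, rose by 0.97.

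The CITED adaptors, which link AP-2 factors to those acetyltransferases, were lower or at background in tumours. Cited2 fell by 1.55 on the log2 scale (SE 0.29, limma adjusted p = 0.00132), from 3607 ± 1278 (SD, n = 4) in muscle to 1212 ± 347 (SD, n = 5), with all tumours below all muscles. Cited4 was below the floor in every tumour and at or above it in 3 muscles, and was not tested, as was Cited1, which was below the floor on 8 of 9 arrays. Kctd15, which inhibits AP-2 activity in the neural crest, fell by 0.83 (SE 0.25, limma adjusted p = 0.0174). It stood at 1044 to 1424 in tumours and 1220 to 2769 in muscles, so the groups overlapped through muscle 2. Its call ended without muscle 1 (limma adjusted p = 0.0587), muscle 3 (0.0517) or muscle 4 (0.0623), and under the housekeeping centring (0.0694).

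**Figure D3:**
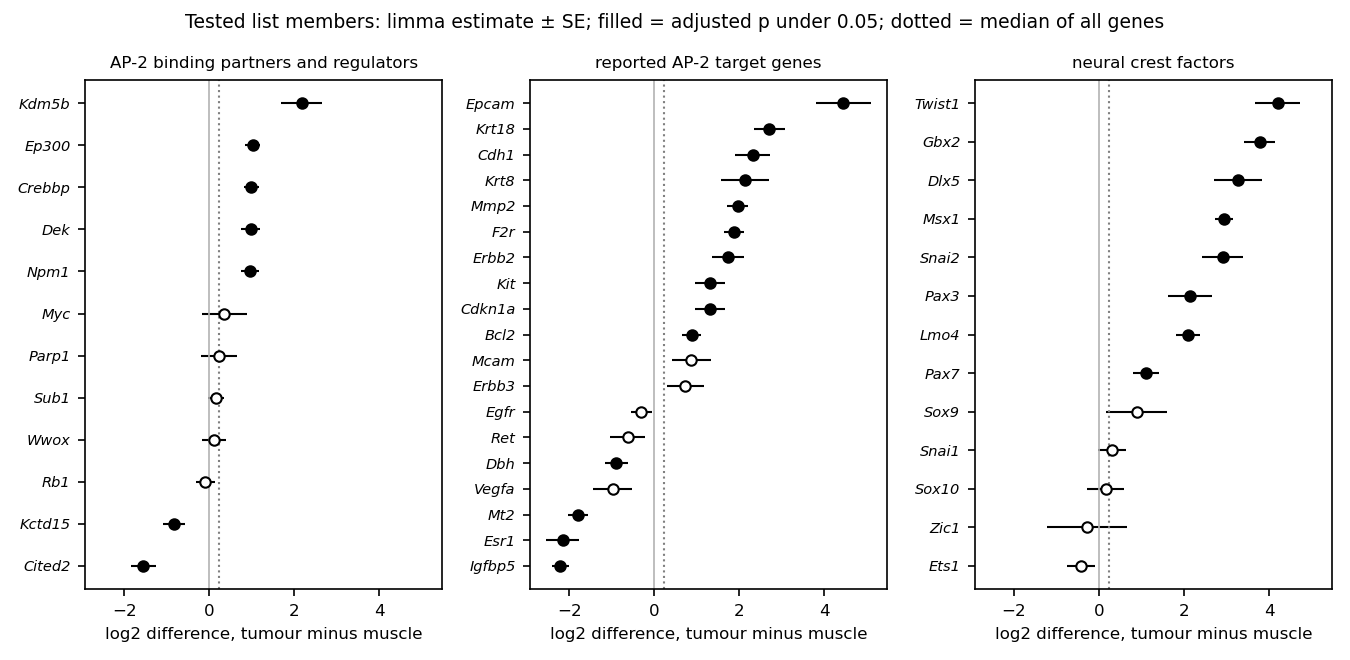
Log2 difference between tumour and muscle (x axis, limma estimate with its SE as a bar) of the tested members of 3 lists, with filled points for an adjusted p under 0.05 and a dotted line at the median of all genes, 0.23. Partners and reported targets lie on both sides of 0, and the 8 called neural crest factors are all higher in tumours.

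Genes reported in other settings as direct AP-2 targets were called in both directions. Of 22 such genes, 20 were in the table and 19 were tested, with 10 higher, 4 lower and 5 not called. That is 73.7% called, beside 48.1% of all genes, and a median of 0.88. Higher calls were 71.4% of the list's calls and 62.6% of those of all genes. With only probe sets ending in _at the count was 9 of 12. The list was drawn from other tissues, largely epithelium and neural crest.

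The largest rises in the list were those of Epcam, Krt18 and Cdh1. Epcam, an epithelial adhesion molecule, was at 4695 in tumour 3 and 396 to 725 in the other tumours, with every muscle below the floor, which put the tumours at least 6.70-fold higher (limma adjusted p = 0.000249). Without tumour 3 the bound was 4.29-fold. Krt18, a simple keratin, rose by 2.71 (SE 0.37, limma adjusted p = 0.000158), and Cdh1, the epithelial cadherin, by 2.32. Of the receptor tyrosine kinases, Erbb2 rose by 1.74 (SE 0.38, limma adjusted p = 0.00301), from 102 ± 49.9 (SD, n = 4) to 374 ± 140 (SD, n = 5), with no overlap. For both Cdh1 and Erbb2 only muscle 4 reached the floor, so their log2 differences rest on muscle values near background. Kit, the stem cell factor receptor, rose by 1.32 (limma adjusted p = 0.00936), with 589.7 in tumour 3 and 228 to 363 in the others, against 68.0 to 164 in muscle. Erbb3, the partner receptor of Erbb2, was not called (log2 difference 0.73, limma adjusted p = 0.190), but stood at 2867 in tumour 3 against 530 to 638 in the other tumours and 392 to 561 in muscle. Ret, the receptor of GDNF ligands, was not called either, at −0.62 (limma adjusted p = 0.240).

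Of the 20 targets in the table, 8 were highest in tumour 3, among them Epcam, Erbb3 and Kit. The 8 include Krt8, Krt18 and Epcam, which are also simple epithelium markers. Tumour 1 was highest for 6, among them Ret and Igfbp5. Tumour 5 was highest for 4, tumour 4 for 2 and tumour 2 for 0. The share of all genes that peak in each tumour was not worked out, so nothing is read from these counts. Their relation to the AP-2 levels was not tested. Called targets also fell. Igfbp5, a binding protein of insulin-like growth factors, fell by 2.20 (SE 0.20, limma adjusted p = 1.5e-05), and Esr1, the oestrogen receptor, by 2.15 (SE 0.38, limma adjusted p = 0.000834). Esr1 averaged 548 ± 341 (SD, n = 5) in the tumours against 2165 ± 233 (SD, n = 4).

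The AP-2 palindrome was looked up in RefSeq promoter windows of build GRCm38.p6, 300 bases long, from 250 before to 50 after a gene start. The motif was GCCNNNGGC, which reads the same on both strands, and 16.6% of all 32851 windows hold it. Of the family, 4 of 5 genes matched the windows, all but Tfap2c, and 0 of these 4 held the motif. The form of this palindrome with 1 more base between its arms is in 14.8% of windows and was in 1 of the 2 windows of Tfap2a. Of the 22 reported targets 18 matched and 7 held it in at least 1 window, where 18.5% of all genes in the table do. The 7 sites, which overlap no other match of the motif, are shown with their flanks to set the sequence beside each gene's change, 5′ to 3′ on the gene's strand with the motif in capitals.
Kit (chr5:75574842-75574872, + strand): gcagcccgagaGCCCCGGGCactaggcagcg
Krt18 (chr15:102028122-102028152, + strand): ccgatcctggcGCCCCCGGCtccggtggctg
F2r (chr13:95618683-95618713, - strand): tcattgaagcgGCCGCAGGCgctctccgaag
Bcl2 (chr1:106714516-106714540, - strand): cccagGCCAGCGGCcgcggccgggc
Mcam (chr9:44134526-44134556, + strand): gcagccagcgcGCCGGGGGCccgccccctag
Esr1 (chr10:4611808-4611838, + strand): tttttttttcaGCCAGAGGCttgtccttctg
Igfbp5 (chr1:72874910-72874940, - strand): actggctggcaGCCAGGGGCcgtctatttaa

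The genes that carry these letters did not move one way. Kit and Krt18 rose, as did F2r, the thrombin receptor, with a log2 difference of 1.88 (SE 0.24, limma adjusted p = 0.000104), and Bcl2, which blocks apoptosis, at 0.88 (SE 0.22, limma adjusted p = 0.00709). Esr1 and Igfbp5 fell. Mcam, an adhesion molecule of melanoma, was not called, at 0.87 (SE 0.46, limma adjusted p = 0.137), and read 915 in tumour 5 and 158 to 358 in the other tumours. F2r, Bcl2 and Mcam are named because their windows hold the motif. A match of letters is not a bound site, and Tfap2c itself was not among the windows.

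Factors of the neural crest, the embryonic cell population in which AP-2 genes act with other regulators, were often higher. Of 17 listed genes 15 were in the table and 13 were tested; 8 were higher, 0 lower and 5 not called, or 61.5% called higher beside 30.1% of all genes, with a median of 2.10. Twist1, a mesenchymal bHLH factor, rose by 4.20 (SE 0.53, limma adjusted p = 1e-04) and Msx1, a homeobox factor of limb and face, by 2.94 (SE 0.22, limma adjusted p = 6.3e-06). Gbx2, a homeobox gene early in crest induction, was at least 6.66-fold higher, with all muscles below the floor. Dlx5, another homeobox factor of the face and limb, rose by 3.27 and Snai2, a zinc finger factor of migrating crest, by 2.91. Pax3, Pax7 and Lmo4 were also called higher, by 2.15, 1.11 and 2.10. By probe sets ending in _at, the values were smaller for Snai2 (1.45, limma adjusted p = 0.00704) and for Msx1 (2.03, limma adjusted p = 0.0092). Those not called were Sox9, Sox10, Snai1, Ets1 and Zic1, and Sox8 and Foxd3 were below the floor in every tumour. Sox10 was at 0.16 (limma adjusted p = 0.785). Sox9 was at 0.88 (limma adjusted p = 0.338), but without muscle 2, which read 907 where the other muscles read 24.4 to 177, it was 1.73 and was called (limma adjusted p = 0.0166).

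Other tissues in which AP-2 genes act were represented by few tested genes. Of 4 tested trophoblast factors 1 was called, or 25%, under the 48.1% of all genes. It was Eomes, a T-box factor, at 449.7 ± 215 (SD, n = 5) with all muscles below the floor, at least 3.59-fold higher (limma adjusted p = 0.000179). The place of this list was not stable. With the CC17 pair averaged, or without tumour 2 or tumour 4, 2 of 4 were called, and without muscle 2 it was 2 of 3. Of 5 tested genes of germ cell precursors 40% were called, also under the 48.1% of all genes, but this place was not stable either. With median centring, quantile normalization, a pseudocount of 64 or eBayes without trend, 3 of 5 were called. With the floor asked of all arrays of 1 group, 3 of 3 were called. Prdm1, a repressor of somatic genes, rose by 0.97 and Sox17, an endoderm and vessel factor, fell by 1.32 (limma adjusted p = 0.0230), while Pou5f1 and Nanog were below the floor on every array. The fall of Sox17 was no longer called without muscle 1 (limma adjusted p = 0.0577), muscle 3 (0.0659), muscle 4 (0.0618) or tumour 3 (0.0519). Of the sympathetic genes only Hand2 and Dbh were tested. Hand2, a bHLH factor, was called higher (limma adjusted p = 0.0446), with all muscles below the floor, so that the bound was at least 1.72-fold. The groups overlapped, since tumour 2 lay under every muscle while the other tumours read 249 to 333. Its log2 difference was 1.69, and 2.32 without tumour 2. Its call ended without any 1 of the muscles (limma adjusted p from 0.0717 to 0.0925) and under 3 other scalings. It also ended with a pseudocount of 1 (limma adjusted p = 0.0677) and with no filter on dim genes (0.0541). Hand2 reached the floor in 4 tumours and 0 muscles, and was not tested without tumour 1, 3, 4 or 5. Dbh, the enzyme that makes noradrenaline and also a reported AP-2 target, fell by 0.89 (limma adjusted p = 0.0194), a call that ended without muscle 1 (0.0606) or muscle 2 (0.0534) and under the housekeeping centring (0.0868).

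Of the markers of skin and pigment cells, which also express AP-2 genes, none that was tested was called higher. Of 12 keratinocyte markers 7 were in the table, while Krt5, Krt10, Krt14, Krt15 and Dsg3 were not. The 7 summed to 585 to 1535 in tumours and 877 to 1266 in muscle, with tumour 3 above every muscle. Krt1, Ivl and Col17a1 were below the floor in all tumours, and 0 of the 3 tested (Trp63, Lor and Perp) were called. The 8 melanocyte markers summed to 1138 to 1337 in tumours and 1707 to 2449 in muscle, with Tyrp1 and Mlana below the floor on all arrays, and 2 of 5 tested were lower. The 5 Schwann cell markers in the table summed to 3647 to 10756 in tumours and 4692 to 6994 in muscle, with 2 lower and 3 not called. Endothelial markers summed to 1217 to 2325 in tumours and 2557 to 2791 in muscle, with 1 of 5 called, lower, and leukocyte markers to 598 to 4731 and 1309 to 1996, with 1 of 3 called, higher. The share called in each of these 5 lists, from 0 to 40%, was under the 48.1% of all genes.

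The genes whose profile lay nearest to Tfap2c over the 9 arrays were found by the root mean square difference of log2 levels, each gene centred on its own mean. Ptn, the growth factor pleiotrophin, was nearest, at 0.35, where the median of all genes was 3.06. It read 38999.5, 25363, 17206, 10166 and 10219 in tumours 1 to 5 and 125 to 349 in muscle, so that tumours 1, 2 and 3 came in the same order as for Tfap2c 1436392_s_at. Next came Cbln1, a synaptic organiser, at 0.70, Tmem30b, a subunit of lipid flippases, at 0.70, the cyclin Ccnd2 at 0.72, Lhx8, a LIM homeobox factor, at 0.79, and Aard at 0.91. Cbln1, Lhx8 and Aard were below the floor on every muscle array. All 6 had every tumour above every muscle, the pattern on which the measure mostly rests.

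For Tfap2b (1435670_at) the nearest genes were Dcaf12l1 at 0.57, Rps6ka6, a ribosomal S6 kinase, at 0.63, Scg5, a neuroendocrine chaperone, at 0.68, Slc25a13, a mitochondrial carrier of aspartate and glutamate, at 0.70, Sgo2a, a protector of centromeric cohesion, at 0.70, and Ezr, which links membrane to actin, at 0.71. The median of all genes was 1.71. Tumour 3 was highest for 5 of these 6 genes, and for Dcaf12l1 tumour 4 was. Rps6ka6 read 199, 496, 1109.9, 808 and 374 in tumours 1 to 5, the same order of tumours 3 and 4 at the top and tumour 1 at the bottom as Tfap2b. The genes were picked for likeness to Tfap2b, which fixes much of that order. With a pseudocount of 1 or of 64, 2 of these 6 remained nearest to Tfap2b, and 4 of the 6 to Tfap2c.

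**Figure D4:**
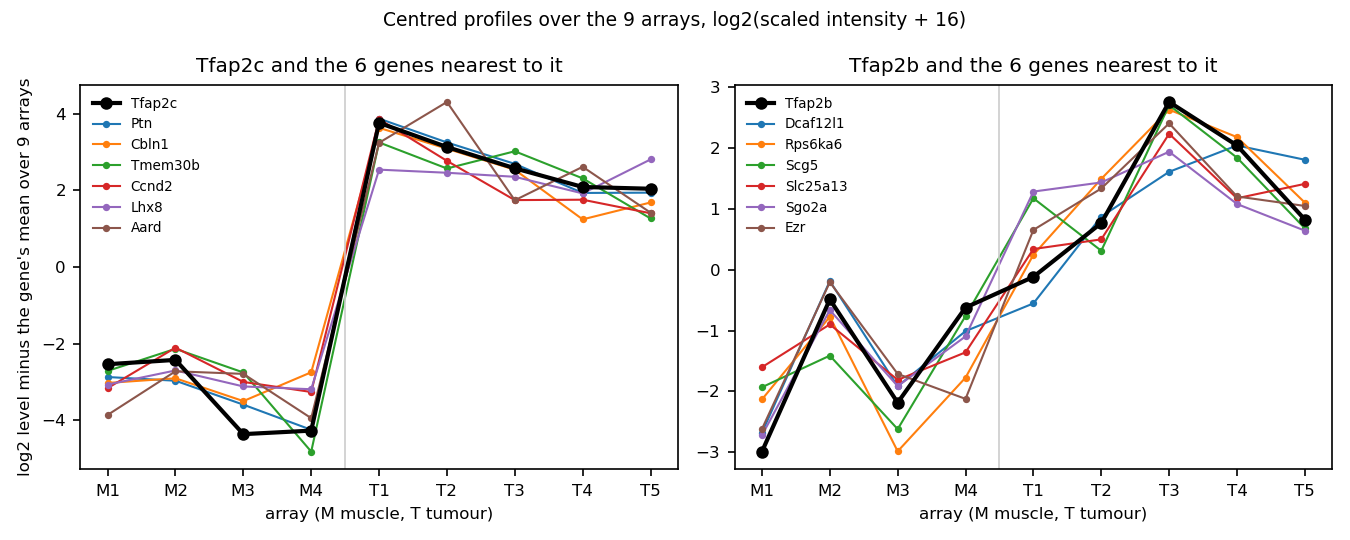
Log2 level minus the gene's own mean over the 9 arrays (y axis) for Tfap2c and Tfap2b (black) and the 6 genes nearest to each, on muscle arrays M1 to M4 and tumour arrays T1 to T5; lines only join the points of 1 gene. The profiles near Tfap2c are set by the step from muscle to tumour, and most of those near Tfap2b also by the highest level in tumour 3.

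The position of the genes was independent of the way the family was chosen. On chromosome 2 the protein-coding genes next to Tfap2c in RefSeq are Fam209 and Bmp7, a bone morphogenetic protein. Bmp7 was at 1089 to 1680 in the 5 tumours and 4.98 to 48.1 in the muscles, all below the floor, at least 11.2-fold higher (limma adjusted p = 4.9e-06). Fam209 was not called (log2 difference −0.69, limma adjusted p = 0.308). Bmp7 varied less between tumours than Tfap2c, with its highest value 1.54 times the lowest, against 3.31 times for Tfap2c 1436392_s_at. For Tfap2c 1418147_at and 1448977_at it was 2.48 and 5.01 times. The highest Tfap2c value was that of tumour 1 in each, the tumour with the Actb ratio of 12.7.

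Tfap2d and Tfap2b lie next to each other on chromosome 1. Their outer neighbours Defb41 and Pkhd1 were below the floor on all arrays. Beside Tfap2a, Gcnt2, a glycosyltransferase, was not called (0.24, limma adjusted p = 0.519). Beside Tfap2e, the proteasome subunit Psmb2 was not called (−0.68, limma adjusted p = 0.184), and was without tumour 5 (limma adjusted p = 0.0214).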

How the data were processed

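MAS5 is the only tool in the submitters' processing notes; its version, scaling target and background step are not given in the sources used here. What the authors deposited is intensity on a linear scale for 30508 probe sets on 9 arrays; the number of arrays limits the precision. Arrays were scaled to a common 2% trimmed mean (factors 0.909 to 1.29). The 7 control probe sets, 496 with several symbols and 4424 with none were left out of the gene tests.

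Log2(scaled intensity + 16) was fitted with limma 3.58.1 in R 4.3.3 (eBayes with trend; p-values two-sided and adjusted by Benjamini-Hochberg over the 10646 genes tested). The fit was tested on simulated data. The members and lists were chosen with earlier results of these data known. Named were all AP-2 probe sets, up to 5 called genes per list by size, a fixed set of partners, receptors and crest factors, the 6 nearest profiles, genes next to a member, and targets with the motif. No sequence of an AP-2 protein is shown.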

Additional observations from a re-analysis of the deposited data

Results flagged for a closer look

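A test for a sample far from the others (Dixon's, on log2 levels) was run on 112 groups of values, of which chance flags about 5%, and it marked 4. Tfap2e (1435205_at) read 34.1 in tumour 4 and 2.34 to 3.49 in the other tumours, all below the floor. Epcam read 4695 in tumour 3 and 396 to 725 in the other tumours. Erbb3 read 2867 in tumour 3 and 530 to 638 in the others. Hand2 read 20.0 in tumour 2 and 249 to 333 in the others.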

How the results depend on the processing

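No paired analysis was possible because the labels give no replicate numbers that the groups share. No AP-2 probe set of Tfap2c or Tfap2b changed sign under any scaling, pseudocount or array left out. The pseudocount moved Tfap2c 1418147_at most, to a log2 difference of 6.10 with 1 and 3.77 with 64, and with 64 Tfap2c 1436392_s_at stood at 5.15 and Tfap2b 1423340_at at 1.37. Over single arrays left out, the log2 differences ran from 5.79 to 6.44 for Tfap2c 1436392_s_at, 4.80 to 5.41 for 1418147_at, 2.95 to 3.61 for 1448977_at, 2.35 to 3.19 for Tfap2b 1435670_at, 1.88 to 2.45 for 1423340_at and −0.66 to 0.07 for Tfap2a. With the floor at the 50th percentile (chosen after seeing the data) the bound of Tfap2c 1436392_s_at was 22.2-fold, and at the 30th muscles 1 and 2 reached the floor, which leaves no bound. All genes called were 5122, ran from 4224 to 5299 with 1 array left out, and were 4900 with the CC17 pair averaged. Target genes called fell to 9 with only probe sets ending in _at, where 12 were tested. Sympathetic genes called were 1 under the 4 other scalings, with a pseudocount of 1 and with the floor asked of all arrays of 1 group, and 0 to 2 with 1 array left out. Trophoblast genes called were 2 with the CC17 pair averaged and with no filter, and 1 to 2 with 1 array left out. Germ cell genes called were 1 with only _at probe sets, and 1 to 2 with 1 array left out. They were 3 with median centring, quantile normalization, a pseudocount of 64 and eBayes without trend. The floor asked of all arrays of 1 group also gave 3. Of the genes nearest to Tfap2b 2 remained with a pseudocount of 1 or 64. The causes were not tested. Signal near the floor limits what can be said of Tfap2a, Tfap2d, Tfap2e and the muscle levels.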
